A study of Mus musculus with 9 samples.

Results

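The 9 genes followed here encode secreted or membrane antagonists of bone morphogenetic proteins (BMPs) and were measured in Shox2-lineage cells of the mouse limb. They are Chrdl1, Chrd, Nog, Grem1, Fst, Fstl1, Bambi, Twsg1 and Bmper, and each of the 9 matched 1 of the 24102 rows of the expression table. The 9 were chosen by name, with the difference between mutant and control columns already known and with Chrdl1 noted as standing out. That difference is therefore given for them as a description, with its error and without a test.

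RNA was sequenced from GFP-positive cells sorted from digested limbs of E12.5 embryos. Mutant cells were Shox2(Cre/-);Rosa(mTmG), with a Cre allele and a mutant allele of Shox2, a homeodomain factor of the proximal limb. Control cells were Shox2(Cre/+);Rosa(mTmG), with the same Cre allele and a normal allele, so both groups carried Cre at 1 copy of Shox2 and the mTmG reporter. Cre is driven by the Shox2 locus and the reporter stays on once recombined, so the sort collects cells that express or once expressed the locus. The table holds 1 mutant and 1 control column for each of 3 litters (n = 3 columns per group), whereas the labels give 4 mutant and 3 control samples, 2 of the mutants in litter 1. The sources used here do not give the number of embryos per column, and 2 wild-type whole limbs were not analysed here. Values are FPKM, a level corrected for transcript length and library size. Their depth is unknown.

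BMPs are secreted ligands that bind paired serine/threonine kinase receptors and act through Smad1, Smad5 and Smad9. In the limb they promote cartilage condensation, joint patterning and the death of interdigital cells. Chordin, noggin and gremlin hold the ligands away from the receptors outside the cell, follistatin does so mainly for activins, and Bambi is a receptor-like membrane protein without a kinase domain. Extracellular antagonists thus set where in the limb bud a BMP signal is received.

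The deposited list of genes that its file name calls directly repressed by Shox2 held 3 of the 9 antagonists, Chrdl1, Grem1 and Bmper, or 33.3% of them. Of the 12314 rows tested below, 7.71% were on that list. The sources used here do not say how it was made, and it may rest on these samples, so membership is not independent evidence. A RefSeq table of promoters, of 300 bases each on GRCm38.p6, matched 5 antagonists. The promoters of Grem1 and Bmper are shown as those of listed genes, with that of Chrd, an unlisted gene, beside them. Capitals mark the first transcribed base and the letters GGCGCC, a GC-rich element that Smad1 and Smad5 can bind.
Grem1, chr2:113758599-113758898, minus strand: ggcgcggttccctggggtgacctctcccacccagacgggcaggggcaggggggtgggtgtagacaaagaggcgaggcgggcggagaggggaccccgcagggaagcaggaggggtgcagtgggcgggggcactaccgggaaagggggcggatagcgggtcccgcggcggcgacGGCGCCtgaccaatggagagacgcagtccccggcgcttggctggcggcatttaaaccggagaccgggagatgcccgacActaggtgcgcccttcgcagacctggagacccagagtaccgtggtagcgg
Bmper, chr9:23222826-23223125, plus strand: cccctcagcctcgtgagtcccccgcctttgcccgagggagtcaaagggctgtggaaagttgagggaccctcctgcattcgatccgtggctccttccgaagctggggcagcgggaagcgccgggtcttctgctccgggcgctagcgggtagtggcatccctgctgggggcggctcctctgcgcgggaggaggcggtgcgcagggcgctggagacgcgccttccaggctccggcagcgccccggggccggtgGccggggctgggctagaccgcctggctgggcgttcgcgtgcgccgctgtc
Chrd, chr16:20732877-20733176, plus strand: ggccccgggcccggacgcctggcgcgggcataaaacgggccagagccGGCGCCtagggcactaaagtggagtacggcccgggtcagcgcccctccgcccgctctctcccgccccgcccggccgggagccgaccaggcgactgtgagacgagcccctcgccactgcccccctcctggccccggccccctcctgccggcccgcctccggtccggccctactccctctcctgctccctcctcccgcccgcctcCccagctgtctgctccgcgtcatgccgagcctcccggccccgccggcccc

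The letters TAAT, the core that most homeodomains bind, were searched on both strands and were in none of the 5 promoters (Grem1, Bmper, Chrd, Fstl1 and Twsg1), against 58.0% of all 32851 promoters. The longer TAATTA, which contains TAAT, was also in 0 of the 5, against 5.29% of all promoters. GGCGCC, which reads the same on both strands, was in 2 of the 5, beginning 78 bases before the start of Grem1 and 203 bases before that of Chrd, against 11.9% of all promoters. All 5 were rich in G and C, from 66.7% in Fstl1 to 78.3% in Chrd, where the median promoter had 52.7%. Letters in a window of this size are a description and not binding sites.

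Shox2 itself was at 16.7, 18.3 and 96.9 FPKM in the mutant columns of litters 1, 2 and 3, against 217, 222 and 210 FPKM in the controls. The litter 3 mutant thus kept far more Shox2 RNA than the other two. Both columns of litter 2 also stood apart. The litter 2 mutant had Xist at 178 FPKM and Eif2s3y and Kdm5d listed at 0, whereas the other 5 columns had Xist between 12.1 and 73.0 FPKM and both Y-linked genes detected, so sex and genotype cannot be told apart in litter 2. The litter 2 control had the highest summed level of 6 endothelial markers, 14.2 FPKM, and of 6 surface ectoderm markers, 32.0 FPKM. These sums ran from 4.86 to 4.90 FPKM in the mutants, against 5.26 and 6.24 FPKM in the other controls, for endothelium. For surface ectoderm they ran from 13.0 to 17.1 FPKM in the mutants, against 16.1 and 16.5 FPKM in the other controls. No marker of these lists was at 0 in all columns. Summed markers of limb mesenchyme, 7 of 8 matched, ran from 652 to 1201 FPKM in mutants and from 748 to 1473 FPKM in controls. Summed markers overlapped between mutants and controls for skeletal muscle (49.1 to 57.2 and 29.4 to 76.8 FPKM), nerve and glia (15.9 to 45.7 and 14.2 to 38.7 FPKM), leukocytes (9.50 to 16.8 and 11.3 to 15.0 FPKM) and red cells (188 to 606 and 274 to 434 FPKM). The highest sums of skeletal muscle, 76.8 FPKM, and of limb mesenchyme, 1473 FPKM, were also those of the litter 2 control. The red cell sum rests on 4 of 6 markers, and most of it was Hbb-y. Fewer cells of a type and less RNA per cell cannot be told apart in such bulk samples.

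Chrdl1 encodes chordin-like 1, a secreted protein with chordin-type cysteine-rich repeats that binds BMPs. It was at 27.6, 28.8 and 28.1 FPKM in the mutant columns of litters 1, 2 and 3, against 14.2, 9.40 and 13.2 FPKM in the controls. The groups were 13.3 FPKM apart, and the 3 mutants were much closer to each other than the controls were. The header gives a normalisation for each litter. Spreads and gaps across litters, here and for the other genes, may therefore mix scales. The mean was 28.1 ± 0.623 FPKM in mutants and 12.3 ± 2.54 FPKM in controls (SD, n = 3 each), a coefficient of variation of 2.21% against 20.7%. Mutant over control was 1.94, 3.06 and 2.13 within litters 1, 2 and 3. On the log2(FPKM + 1) scale used for all differences here, which understates the change of low genes, the difference was 1.15 (SE 0.18 from limma). It stood 50th from the top of the 12314 tested rows. Without the litter 2 control it was 0.99 (SE 0.13), and without the litter 2 pair, with litter as a block, 0.97 (SE 0.13). The litter 3 mutant, with the most Shox2 RNA left, had as much Chrdl1 as the other two.

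Chrdl1 lies on the X chromosome, and Xist differed between the litter 2 columns (178 FPKM in the mutant, 34.6 FPKM in the control) and those of litter 1 (36.8 FPKM in the mutant, 12.1 FPKM in the control). Over 417 tested X-linked rows, the median difference was 0.06, 0.05 and 0.03 in litters 1, 2 and 3, against -0.07, -0.03 and 0.00231 over 11121 other rows. Of the X-linked rows 23.3% were higher in mutants in 3 of 3 litters, against 15.5% of the other rows. Chrdl1 differed by 0.91, 1.52 and 1.04 in the same litters. The litter 3 columns had Xist at 68.4 FPKM (mutant) and 73.0 FPKM (control). The part of sex composition in the Chrdl1 difference was not tested.

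**Figure D1:**
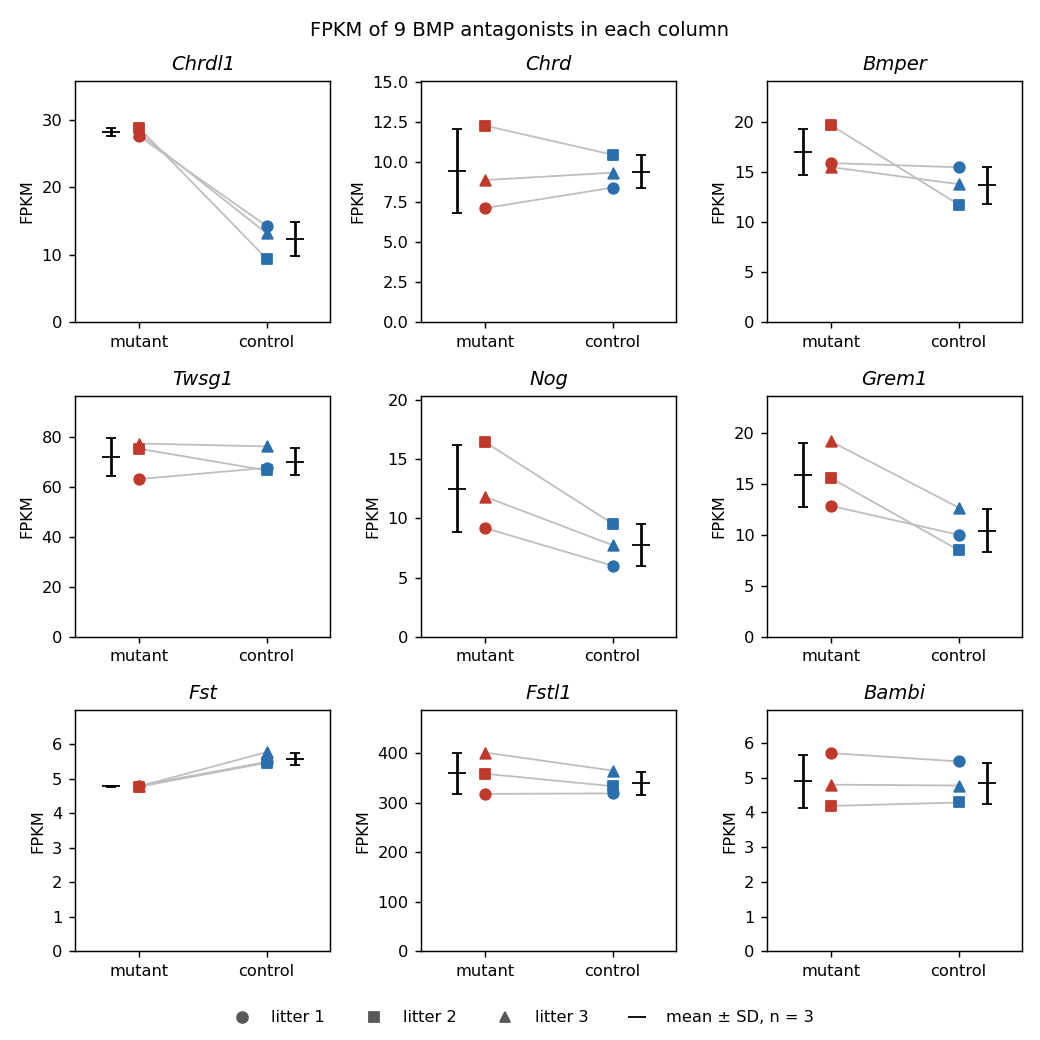
FPKM (linear axes from 0) of each antagonist in 3 mutant columns (red, left) and 3 control columns (blue, right); grey lines join the columns of a litter, and black bars give the mean ± SD (n = 3). Chrdl1 is between 27.6 and 28.8 FPKM in mutants and between 9.40 and 14.2 FPKM in controls, whereas Chrd, Twsg1, Fstl1 and Bambi overlap.

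Chrd encodes chordin itself, the antagonist of the early gastrula organiser. It was at 7.11, 12.3 and 8.86 FPKM in the mutant columns, against 8.39, 10.4 and 9.32 FPKM in the controls of litters 1, 2 and 3. The groups overlapped and the litters disagreed in direction, with a difference of -0.02 (SE 0.21). In the controls Chrd and Chrdl1 had overlapping levels, means of 9.39 and 12.3 FPKM, while in the mutants their ranges were apart, with means of 9.41 and 28.1 FPKM.

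Bmper, which encodes a secreted protein with chordin-type repeats that can hinder or aid BMP signals, was at 15.9, 19.7 and 15.5 FPKM in mutants, against 15.5, 11.7 and 13.8 FPKM in controls. The groups were apart by only 0.0163 FPKM, between the litter 3 mutant and the litter 1 control. The difference was 0.30 (SE 0.16), made up of 0.04, 0.70 and 0.16 in litters 1, 2 and 3, and was 0.10 (SE 0.13) without the litter 2 pair. Whether the sex of the litter 2 mutant or the endothelial RNA of its control contributed was not tested. Twsg1, whose product binds both chordin and BMPs, was at 63.0, 75.2 and 77.2 FPKM in mutants, against 67.5, 66.5 and 76.1 FPKM in controls, overlapping, with a difference of 0.03 (SE 0.15).

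Noggin and gremlin are antagonists of the cystine-knot fold. Noggin shields BMPs in cartilage and joints, and gremlin keeps the limb's feedback between mesenchyme and apical ridge running. Nog was at 9.19, 16.5 and 11.8 FPKM in the mutant columns of litters 1, 2 and 3, against 6.001, 9.55 and 7.74 FPKM in the controls. The groups overlapped, with levels that differed between litters, yet mutant over control was alike in all 3 litters, 1.53, 1.72 and 1.53. The difference was 0.61, with SE 0.25, or SE 0.11 with litter as a block, and 0.40 without the litter 2 mutant.

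Grem1 was at 12.8, 15.6 and 19.2 FPKM in the mutants, against 9.997, 8.49 and 12.7 FPKM in the controls of litters 1, 2 and 3. Every mutant value was above every control value, by 0.165 FPKM at the closest. Mutant over control was 1.28, 1.83 and 1.51, and the difference was 0.56 (SE 0.21), or 0.44 (SE 0.22) without the litter 2 control.

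Fst encodes follistatin, which binds activins tightly and some BMPs less so. It was at 4.80, 4.76 and 4.77 FPKM in the mutant columns, against 5.48, 5.45 and 5.76 FPKM in the controls of litters 1, 2 and 3. Fst had the lowest spread of the 9, a coefficient of variation of 0.388% in mutants and 3.08% in controls, and the groups were 0.657 FPKM apart. The difference was small at -0.18 (SE 0.13), and 2774th from the bottom of all tested rows. Limma's SE borrows spread from other rows and is wider here than that of Fst alone.

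Fstl1, a secreted follistatin-like glycoprotein of mesenchyme that can bind BMP4, was at 318, 359 and 402 FPKM in mutants, against 319, 334 and 365 FPKM in controls. The groups overlapped, with a difference of 0.08 (SE 0.17). Bambi was at 5.70, 4.18 and 4.79 FPKM in mutants, against 5.46, 4.28 and 4.77 FPKM in controls, so that the columns of a litter were nearly equal (difference 0.01, SE 0.16). A pseudogene, Bambi-ps1, was listed at 1.14 to 2.27 FPKM in mutants and 0.974 to 2.29 FPKM in controls. Reads shared with it could make the level of Bambi uncertain, which was not tested.

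**Figure D2:**
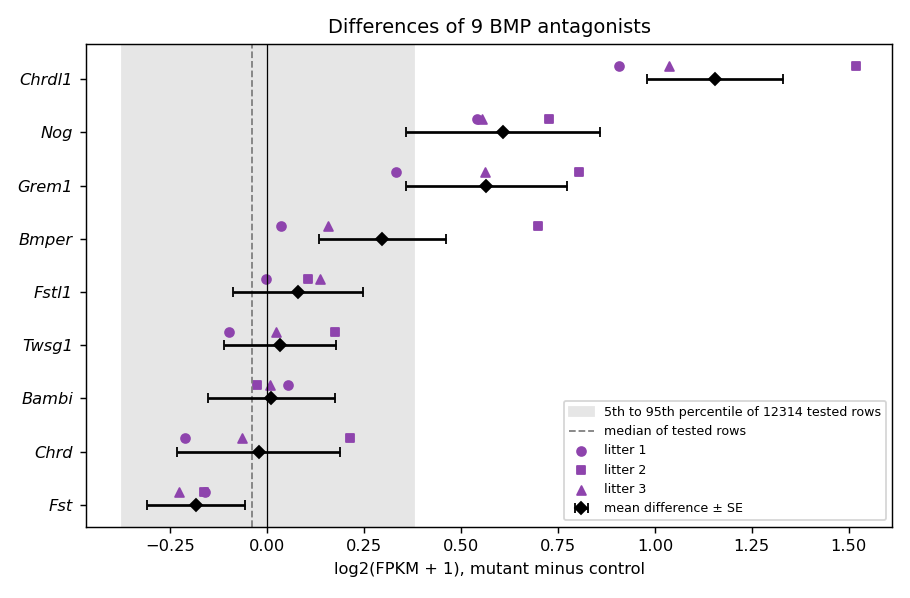
Difference in log2(FPKM + 1), mutant minus control, for each antagonist: black diamonds give the mean difference ± SE from limma (n = 3 per group), purple symbols the 3 litters, the grey band the 5th to 95th percentile of 12314 tested rows (-0.37 to 0.38) and the dashed line their median (-0.04). Chrdl1, Nog and Grem1 lie right of the band, and the other 6 within it.

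Over the 12314 rows with 1 FPKM or more in at least 3 columns, which included all 9 antagonists, limma called 0 rows at an adjusted p under 0.05 (0%), with or without litter as a block, and so called 0 of the 9. At an unadjusted p under 0.05 there were 439 rows (3.57%), or 1433 (11.6%) with the block. Chrdl1, Grem1 and Bmper were higher in mutants without overlap, 3 of 9, as were 4.22% of tested rows. Fst was lower without overlap, 1 of 9, as were 5.03% of rows. Chrdl1, Nog, Grem1 and Bmper were higher in 3 of 3 litters, 4 of 9 against 15.7% of rows, and Fst was lower in 3 of 3, against 22.3% of rows. The median difference was 0.08 over the 9 and -0.04 over all tested rows. Since this contrast helped to choose the genes, nothing is read from these shares.

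Fstl1 and Twsg1 were the most abundant antagonists in each column, and their ranges did not overlap those of any other. Fstl1 stood 76th of the 12314 tested rows by mean FPKM and made up 67.0% to 70.2% of the summed FPKM of the 9 in mutants, against 70.7% to 72.6% in controls. Chrdl1 was 3rd in each mutant column, ahead of Bmper, Grem1, Nog and Chrd, each of which overlapped its neighbour in that order. In the controls Bmper, Chrdl1, Grem1, Chrd and Nog followed Twsg1, again overlapping neighbour by neighbour, and Chrdl1 was 4th, 6th and 4th in litters 1, 2 and 3. Fst and Bambi were the lowest pair in all 6 columns. Apart from Fstl1 and Twsg1, the other 7 summed to 83.1, 102 and 93.0 FPKM in mutants, against 65.0, 59.4 and 67.2 FPKM in controls. Chrdl1 held 33.2%, 28.3% and 30.2% of that sum in mutants, against 21.9%, 15.8% and 19.6% in controls.

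Litters differed in ways that the mutant allele does not define. In mutants and controls alike, Nog and Chrd were lowest in litter 1, intermediate in litter 3 and highest in litter 2, while Bambi ran the other way. Sox9, the master regulator of cartilage, had the litter order of Nog and Chrd, at 35.3, 95.8 and 75.2 FPKM in the mutants of litters 1, 2 and 3, against 32.2, 112 and 59.8 FPKM in the controls. The 6 chondrocyte markers summed to 579, 989 and 836 FPKM in the mutants, against 651, 699 and 750 FPKM in the controls. The sum thus had the litter order of Sox9 in mutants only. In mutants the other markers also had that order, except Hapln1, which was highest in litter 3. In controls none of the others had it. There Col2a1, Acan and Col9a1 were lowest in litter 2, and Matn1 and Hapln1 were highest in litter 3. The part of cartilage content in the litter order was not tested, and since the header gives a normalisation for each litter, levels of different litters may not share a scale. Fstl1 was lowest in litter 1 and highest in litter 3 in both genotypes.

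**Figure D3:**
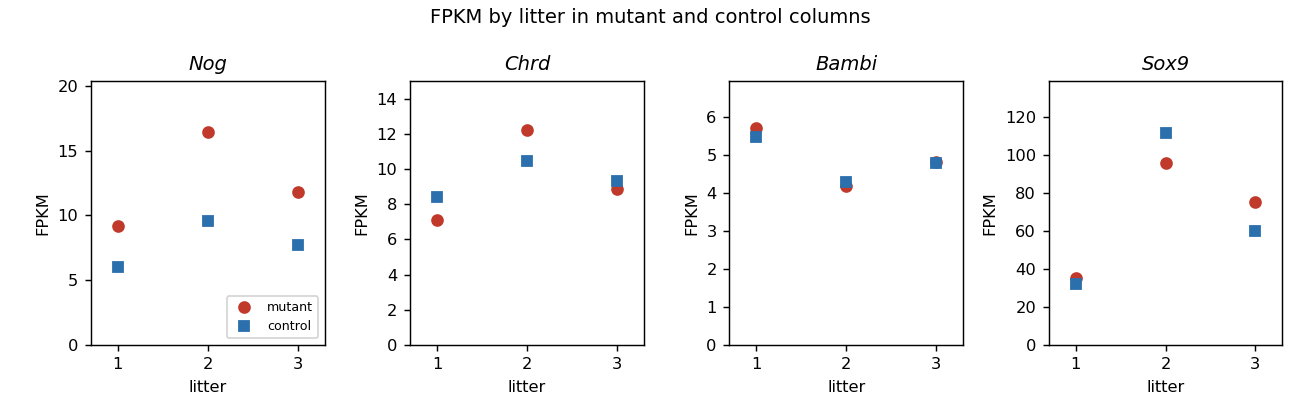
FPKM of Nog, Chrd, Bambi and the cartilage regulator Sox9 in each litter, mutant columns as red circles and control columns as blue squares, 1 column per point. Nog, Chrd and Sox9 are lowest in litter 1 and highest in litter 2 in both genotypes, and Bambi is highest in litter 1 and lowest in litter 2. The other chondrocyte markers, not drawn, do not have the order of Sox9 in controls.

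Among 12072 tested rows with a single unrepeated gene name, the 5 whose log2(FPKM + 1) was most like that of Chrdl1 over the 6 columns were Stambpl1, Ppargc1a, 1190002N15Rik, Glis3 and Ociad2. Their Pearson r with Chrdl1 ran from 0.991 to 0.997. The points share litters and the 2 genotypes, and 160 rows (1.33%) had r above 0.9. Stambpl1, a deubiquitinase gene, was at 3.15, 3.52 and 3.16 FPKM in mutants, against 1.29, 0.393 and 0.946 FPKM in controls of litters 1, 2 and 3. Glis3, a zinc-finger transcription factor gene, was at 6.36, 7.26 and 5.84 FPKM in mutants, against 2.42, 1.36 and 2.58 FPKM in controls. All 5 had their lowest value in the litter 2 control, as Chrdl1 did. They were chosen by r over these same columns, so this likeness largely follows from the choice. Stambpl1, 1190002N15Rik and Glis3 were on the deposited list with Chrdl1, as were 7.71% of tested rows, and Ppargc1a and Ociad2 were not. That list may rest on these samples, so nothing is read from this.

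**Figure D4:**
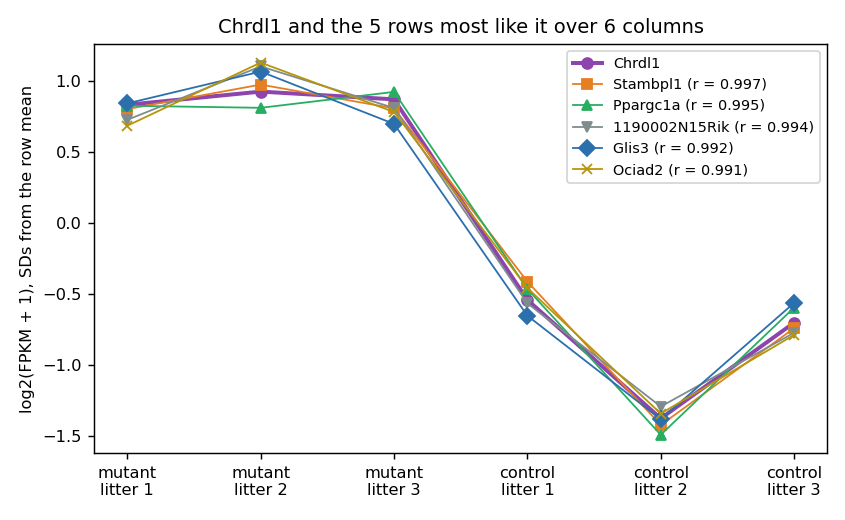
Log2(FPKM + 1) of Chrdl1 and of the 5 rows with the highest Pearson r with it over 6 columns, each centred on its row mean and divided by its SD; mutant columns stand left of control columns, and lines only guide the eye. All 6 genes are above their mean in the 3 mutants, below it in the 3 controls and lowest in the litter 2 control, which largely follows from choosing the rows by r.

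Other genes of the pathway, 53 in 6 lists, were compared in the same limma fit, where 45 passed the filter. Limma called 0 of the 45 higher and 0 lower, as it called 0% of all rows, and 0 again with litter as a block. Adjusted p given below come from the fit without litter unless the block is named. Their median difference was 0.14, against -0.04 over all tested rows. Of the 45, 18 were higher and 8 lower in all 3 litters, where 15.7% and 22.3% of all tested rows were. The lists were chosen with earlier results of these data known, so nothing is read from such counts, here or by list below. With the litter 2 pair left out and litter as a block, 7 of them were called, Gdf5, Bmp3, Id2 and Msx1 higher and Bmp6, Gdf7 and Sostdc1 lower, where the whole table had 534 calls. That fit had 4 columns and 1 residual degree of freedom per row.

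Of 14 other extracellular antagonists, 9 were tested, with a median difference of -0.03, which ran from -0.12 to 0.12 with 1 column left out. All 3 litters were higher for 2 of them and lower for 2, against 15.7% and 22.3% of all tested rows. Sostdc1, a secreted antagonist of BMP and Wnt, was at 10.5, 19.2 and 25.9 FPKM in mutants, against 20.4, 24.7 and 26.7 FPKM in controls (difference -0.43, SE 0.32, limma adjusted p = 1.00, and -0.09 without the litter 1 mutant). Kcp, with chordin-type repeats like those of Chrdl1 and able to enhance BMP signals, averaged 18.0 ± 5.15 FPKM in mutants and 21.0 ± 3.46 FPKM in controls (difference -0.24, adjusted p = 1.00, and -0.03 without the litter 1 mutant). Sostdc1 was on the deposited list. Of the proteases that cleave chordin, Bmp1 averaged 87.3 ± 21.8 FPKM in mutants and 107 ± 18.1 FPKM in controls (difference -0.31, and -0.16 without the litter 1 mutant). Tll1 averaged 5.51 ± 0.464 FPKM in mutants and 5.22 ± 1.57 FPKM in controls (adjusted p = 1.00 for both).

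Ligands that these antagonists bind had a median difference of 0.15 over 9 BMP and GDF genes. That median ran from 0.05 (without the litter 2 control) to 0.38 (without the litter 1 mutant) with 1 column left out, and was -0.09 with litter as a block and no litter 2 pair. Gdf5, the joint ligand that noggin blocks, was at 44.1, 49.0 and 47.0 FPKM in mutants, against 24.3, 19.2 and 20.5 FPKM in controls, a difference of 1.10 (SE 0.14, limma adjusted p = 0.467, and 0.0643 when litter was a block). Its groups did not overlap, but it was not called. Bmp3, a ligand that opposes other BMPs, averaged 6.17 ± 0.484 FPKM in mutants and 3.76 ± 1.06 FPKM in controls (adjusted p = 1.00). With litter as a block, limma's adjusted p for Bmp3 was 0.203. Bmp5 averaged 28.6 ± 3.40 FPKM in mutants and 21.5 ± 2.47 FPKM in controls (adjusted p = 1.00). Of the activin-type ligands bound by follistatin, Inhba was at 4.11, 7.24 and 6.84 FPKM in mutants, against 5.61, 19.5 and 7.78 FPKM in controls, with the litter 2 control far above the rest (-0.62, SE 0.44, adjusted p = 1.00, and -0.14 without that column). Gdf11 averaged 15.6 ± 1.45 FPKM in mutants and 15.5 ± 5.85 FPKM in controls (adjusted p = 1.00).

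Receptors and co-receptors had a median difference of 0.22 over 11 genes. With 1 column left out it ran from 0.12 (without the litter 2 control) to 0.27 (without the litter 3 mutant). The type I receptor gene Bmpr1b averaged 9.60 ± 0.786 FPKM in mutants and 7.52 ± 1.19 FPKM in controls. The type II receptor gene Bmpr2 averaged 27.1 ± 2.39 FPKM in mutants and 22.0 ± 3.33 FPKM in controls. The activin receptor gene Acvr1b averaged 8.54 ± 0.346 FPKM in mutants and 6.89 ± 1.53 FPKM in controls. Smads and output genes had a median of 0.18 over 12. With 1 column left out that median ran from 0.14 (without the litter 3 control) to 0.27 (without the litter 1 control). Smad9, a BMP effector, averaged 3.34 ± 0.233 FPKM in mutants and 2.29 ± 0.644 FPKM in controls. Id2 and Id4 are inhibitors of helix-loop-helix factors. Id2 averaged 153 ± 23.1 FPKM in mutants and 106 ± 13.5 FPKM in controls, whereas Id4 averaged 10.8 ± 0.749 FPKM in mutants and 15.8 ± 4.86 FPKM in controls. Without the litter 2 control the difference of Id4 was -0.25 in place of -0.48, that of Acvr1b 0.12 in place of 0.29 and that of Smad9 0.24 in place of 0.42. Without the litter 1 control that of Bmpr1b was 0.20 in place of 0.32. Limma's adjusted p was 1.00 for each of these 6 receptor and output genes. With litter as a block it ran from 0.211 for Id2 to 0.47 for Acvr1b. Errors of pathway genes are SDs over n = 3 columns per group.

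**Figure D5:**
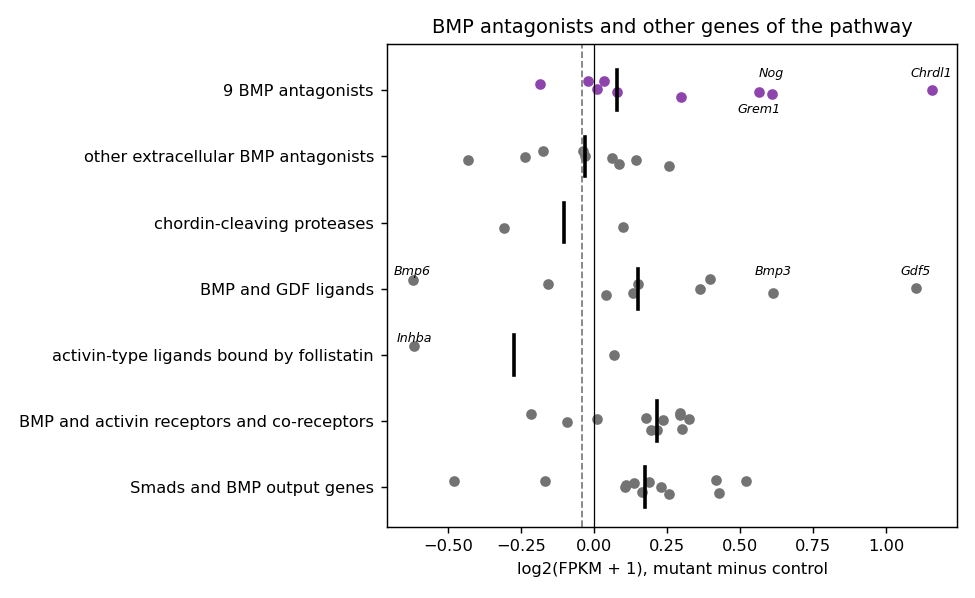
Difference in log2(FPKM + 1), mutant minus control, of the 9 antagonists (purple, top) and of 45 other tested pathway genes by list (grey); 1 point per gene, black bars for list medians and a dashed line for the median of all tested rows (-0.04). Chrdl1 (1.15) and Gdf5 (1.10) lie farthest to the right, and genes beyond 0.55 in either direction are named.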

How the data were processed

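The submitters' processing notes name TopHat, Cuffdiff and the mm9 build; versions and annotation are not given there. Per the file headers, the authors normalised with Cuffdiff's geometric method, stated above each litter. FPKM was inferred as the unit of the deposited values, which are decimals from 0 as Cuffdiff reports them, since the header omits it. The litter 1 mutant column may be either of 2 samples or their combination. The deposited gene list holds symbols only.

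Rows with 1 FPKM or more in at least 3 of 6 columns were compared in limma 3.58.1 (R 4.3.3) on log2(FPKM + 1) with an intensity trend, adjusted by Benjamini-Hochberg at 0.05 and tested on simulated data. Replicates are columns of separate litters. The main fit had no litter term, so its SEs and adjusted p ignore the pairing. Columns were paired by litter, which the sample descriptions name, for values within litters and for fits with litter as a block. Deviations from group means correlated across rows at 0.87, 0.57 and 0.77 within litters 1, 2 and 3. The 9 genes and the pathway and marker lists were chosen with earlier results of these data known. Named pathway genes were up to 3 per list with the smallest unadjusted p, of which 1 is not reported here, and the 5 rows most like Chrdl1 had the highest Pearson r. Msx1, Bmp6, Gdf7, Chrdl2, Vwc2 and Sox9 were named after their values were seen. Alternatives were a pseudocount of 0.1 FPKM, no filter, quantile normalisation, litter as a replicate block, each column left out, and the block with each litter pair left out. Coordinates belong to GRCm38.p6 and were not used with the files.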

Additional observations from a re-analysis of the deposited data

How the results depend on the processing

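Under 13 alternatives the difference of Chrdl1 ran from 0.97 to 1.28 and stayed within 1 SD of 1.15, and those of Nog (0.40 to 0.79), Grem1 (0.43 to 0.70), Bmper (0.10 to 0.43) and Fst (-0.22 to -0.16) kept their sign. The SD is that of log2(FPKM + 1) within groups, pooled over both genotypes. Bmper moved by more than its SD in 1 of the 13 (0.10, block without the litter 2 pair). Fst did so in 1 (-0.22, pseudocount of 0.1 FPKM). The median of the BMP and GDF ligands (0.15) ran from -0.09 to 0.44. Chrd, Twsg1, Bambi and Fstl1 changed sign in 6, 4, 3 and 1 of the 13, around values near 0. Rows called, 0 in the main comparison, were 0 to 1 with a column left out (1 without mutant replicate 3 and 1 without control replicate 3). With the replicate block they were again 0, in this paired fit, while leaving out the pair of litter 2 or of litter 3 gave 534 or 36. Other BMP pathway genes called were 0 except for 7 with the block and without the litter 2 pair, and the cause was not tested. Tll1 (0.10) ran from -0.13 to 0.24 with a column left out, lowest without control replicate 2, and was -0.10 with the block and no litter 2 pair. Gdf11 (0.07) ran from -0.20 to 0.32 and was -0.13 there. Depth is unknown, so what limits the low genes cannot be stated.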

Other observations

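Shox2 was itself on the deposited list whose name calls its genes direct targets of Shox2 repression. It was at 16.7 to 96.9 FPKM in mutants and at 210 to 222 FPKM in controls. The mutants carry a Cre allele and a mutant allele of Shox2, so its own RNA level cannot show whether it represses itself. Sostdc1, an antagonist on the same list, was lower in the mutant in 3 of 3 litters, at 18.5 ± 7.73 FPKM in mutants and 23.9 ± 3.18 FPKM in controls (SD, n = 3 each). Gdf7, a ligand of the BMP family, was at 0.0321 FPKM in the litter 2 control, against 5.01 and 3.49 FPKM in the other controls, and at 2.06 to 2.18 FPKM in the mutants. Chrdl2, the closest relative of Chrdl1 by name, was below the filter, at 0.205, 1.07 and 1.30 FPKM in mutants and 0.219, 0.400 and 0.646 FPKM in controls of litters 1, 2 and 3. Vwc2, which encodes a secreted protein with a chordin-type repeat, was also below the filter, at 0.961 to 1.64 FPKM in mutants and 0.680 to 0.818 FPKM in controls, without overlap. Of tested rows 4.22% were higher in mutants without overlap, and Vwc2 was named after its values were seen.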
